A study of Mus musculus with 81 samples.

Results

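Kupffer cells, the resident macrophages of the liver, were compared with 3 other resident macrophage populations of adult wild-type mice. The comparison used 12 of the 80 samples of an array study of macrophages and their progenitors in wild-type and Irf8 knockout mice. Knockout and embryonic samples were not compared except where these are named, but all 80 samples entered the fit that estimated the spread. The groups were Kupffer cells of the liver (3 samples), microglia of the brain (3), kidney macrophages sorted as F4/80high (3) and Langerhans cells of the skin (3), all labelled wildtype and taken at 6 weeks of age. No treatment beyond cell isolation is given, and the titles of the Langerhans samples name GFP+ cells without saying what drives the reporter. Liver, kidney and skin were digested with collagenase, liver and skin also with dispase and DNase, and brain cells were separated on a Percoll gradient, so organ and way of isolation cannot be told apart. The labels do not say whether the samples of a group came from separate animals.

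Kupffer cells sit inside the sinusoids of the liver and take up particles, microbes and aged red blood cells directly from the blood. They break down the heme of those red cells and return its iron to the plasma, and they handle the lipids that come with swallowed membranes. Microglia, kidney macrophages and Langerhans cells share a macrophage core with them, which depends on the factor PU.1 (gene Spi1) and the growth factor receptor Csf1r, and differ in the genes that their organ imposes.

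Values are log2 array signals, on which 1 unit is a doubling. Each value belongs to its own probe, so levels are compared between samples of a gene and never between genes. A difference is the mean of the 3 Kupffer samples minus the mean of the 3 other group means, given with the standard error of the limma fit, and "called" means a Benjamini-Hochberg adjusted p under 0.05 over all 17076 genes tested. By that rule 2726 genes were higher in Kupffer cells (16.0% of those tested) and 3951 were lower (23.1%), and 1431 were higher by at least 1 log2 unit (8.38%) and 1169 lower by as much (6.85%). All 3 Kupffer samples lay above all 9 others for 1003 genes (5.87%) and below all 9 for 975 (5.71%). Against microglia alone 2818 genes were higher (16.5%) and 3564 lower (20.9%), against kidney macrophages 1577 were higher (9.24%) and 2723 lower (15.9%), and against Langerhans cells 3922 were higher (23.0%) and 4407 lower (25.8%). These 3 comparisons share the Kupffer samples. The median difference from the mean over all genes was -0.09, and it is the level against which the median of each gene list below may be read. Many genes had signals near the lower end of the array in the other populations, where a fold change is understated, and precision is limited by the number of arrays.

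The 3 Kupffer samples correlated with each other at 0.949 to 0.963 over genes, a lower range than the 0.967 to 0.979 seen within the other groups. Against other populations they correlated at 0.868 to 0.889 with kidney macrophages, at 0.806 to 0.832 with microglia and at 0.735 to 0.750 with Langerhans cells. Xist, the RNA of the inactive X chromosome, was at 2.71 to 3.88 in Kupffer cells, against 2.58 to 3.57 in kidney samples, 2.99, 10.17 and 10.36 in the 3 microglia samples and 9.77 to 10.30 in Langerhans cells. Sex therefore differed between groups and within microglia, and no term for it was fitted.

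Markers of other liver cells were present in the Kupffer samples, and their values stand here because they touch several results. All 31 tested hepatocyte markers were higher in Kupffer cells, 28 of them in every Kupffer sample above every other sample, with a median difference of 5.64. Their mean signal was 8.14, 8.51 and 7.94 in the 3 Kupffer samples, against 2.79 to 2.86 in microglia, 2.84 to 3.31 in kidney macrophages and 2.81 to 2.82 in Langerhans cells. Alb, serum albumin, had 11.22, 11.39 and 10.86 in Kupffer cells and 1.64 to 2.76 in the 9 others. In the CD11bhigh macrophages sorted from the same organ the hepatocyte list averaged 4.91, 5.33 and 4.54. Genes that hepatocytes express fill 11 of the 15 largest rises (Alb, Fabp1, Serpina1c, Serpina1d, Serpina1e, Mup3, Fgb, Mug1, Pzp, Fgg and Ahsg) and are described no further. Serpina1 and Mup genes have near-identical copies whose probes may not tell them apart. In bulk RNA, fewer cells of a type and less RNA per cell cannot be told apart.

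Of 28 tested markers of liver endothelium 26 were higher in Kupffer cells, and 25 of these were highest in Kupffer sample 3, where the list averaged 6.24, against 4.71 and 4.62 in Kupffer samples 1 and 2 and 2.56 to 2.95 in the 9 others. Clec4g, a lectin of sinusoidal endothelium, had 7.87, 7.78 and 9.46 in Kupffer cells and 2.00 to 3.27 elsewhere. T and NK cell markers (17 of 19 higher) were all highest in Kupffer sample 2, with list means of 5.5, 6.63 and 4.87 in Kupffer cells, against 4.63 to 5.10 in kidney macrophages and 2.69 to 3.20 in the other two populations. Markers of stellate cells and fibroblasts (10 of 14 higher) averaged 4.40, 4.28 and 4.81 in Kupffer cells, against 2.59 to 3.07 elsewhere, and B cell markers (8 of 13 higher) averaged 4.53, 4.75 and 5.26, against 3.17 to 4.33. Of the other populations, Langerhans cells held keratinocyte markers (list means 6.46 to 6.82, against 2.80 to 2.99 in Kupffer cells). Kidney sample 1 held the most tubule RNA (6.95, 4.94 and 5.68 in the 3 kidney samples, against 2.88 to 3.07 in Kupffer cells). Microglia sample 2 stood apart by neutrophil genes (3.46, 6.52 and 4.08 in microglia, against 3.36 to 3.75 in Kupffer cells). Erythroid markers averaged 2.68 to 2.82 in Kupffer cells and 2.57 to 3.06 in the others.

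**Figure D1:**
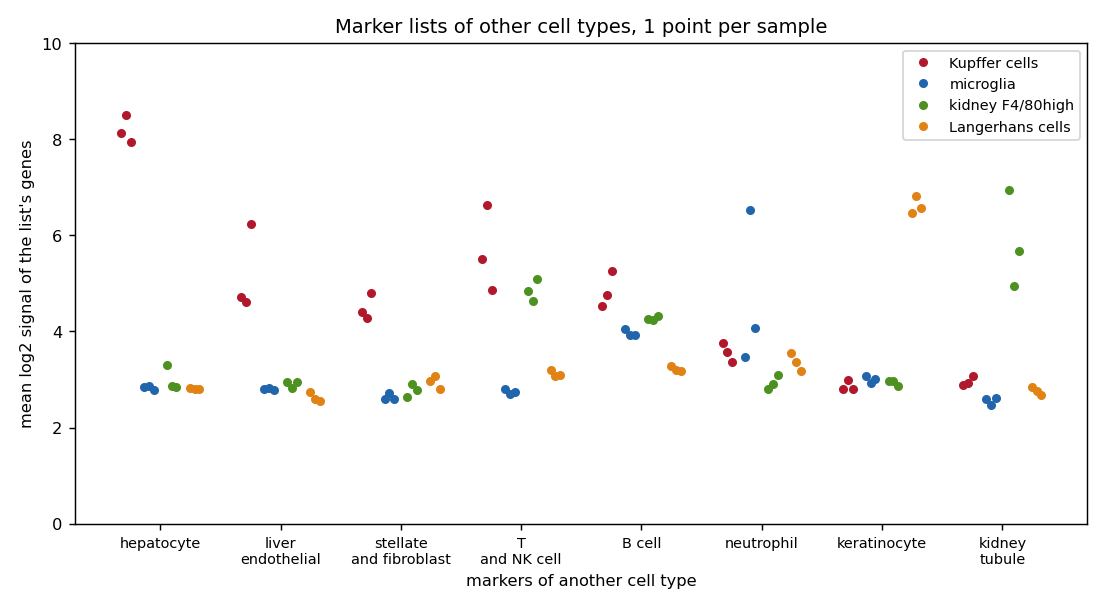
Mean log2 signal (vertical axis) of 8 lists of markers of other cell types in each of the 12 samples; colours are the 4 populations and each point is 1 sample. Hepatocyte markers averaged 8.14, 8.51 and 7.94 in the Kupffer samples and at most 3.31 elsewhere, while keratinocyte markers were high in Langerhans samples and tubule markers in kidney samples.

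All 23 genes of the Kupffer cell identity list were higher in Kupffer cells, and for all 23 the 3 Kupffer samples lay above all 9 others, with a median difference of 5.75. The list is made of known Kupffer cell genes and was chosen with earlier results of these data known. Its direction therefore goes with the label but is no independent check of it. Vsig4, a receptor for complement fragments that captures microbes from blood, had 10.94, 10.88 and 11.01 in Kupffer cells, against 1.54, 1.64 and 1.69 in microglia, 2.19, 1.98 and 1.57 in kidney macrophages and 1.79, 1.66 and 1.69 in Langerhans cells. Its difference of 9.19 ± 0.35 (adjusted p = 2.14e-32), a fold of 585, was the largest of all called genes whose samples did not overlap. Cd5l, a secreted scavenger protein that keeps macrophages from dying, had 10.79, 10.71 and 10.57 in Kupffer cells and 1.85 to 2.72 in the 9 others (8.62 ± 0.31, adjusted p = 2.12e-33). Fcna, the plasma lectin ficolin A, had 10.30, 10.43 and 9.90 in Kupffer cells and 2.56 to 3.77 elsewhere (7.03 ± 0.32, adjusted p = 2.98e-28). Pcolce2, which enhances the processing of procollagen, had 9.12, 8.17 and 9.06 in Kupffer cells and 1.64 to 2.43 elsewhere. For each of these 4 genes the other 3 populations were alike at the low end of the signal.

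The promoters of these 4 identity genes, those with the largest differences among the members that the RefSeq promoter table holds, are printed to show the sequence at their starts. Each window covers 300 bases around the gene's start on the gene's own strand (build GRCm38.p6): Vsig4 at chrX:96293389-96293688 on the minus strand, Cd5l at chr3:87357631-87357930 on the plus strand, Fcna at chr2:25627925-25628224 on the minus strand and Pcolce2 at chr9:95637378-95637677 on the plus strand. Capitals mark GAGGAA, the core of a PU.1 site, and TGCTGA, the core of a MAF site, on either strand, and the Pcolce2 window holds neither.
Vsig4: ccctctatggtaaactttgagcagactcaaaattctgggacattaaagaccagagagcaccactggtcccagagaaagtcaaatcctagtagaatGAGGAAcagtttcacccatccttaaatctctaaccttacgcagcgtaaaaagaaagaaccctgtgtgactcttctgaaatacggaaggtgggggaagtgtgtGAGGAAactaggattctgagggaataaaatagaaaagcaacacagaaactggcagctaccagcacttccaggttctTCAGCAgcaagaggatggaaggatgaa
Cd5l: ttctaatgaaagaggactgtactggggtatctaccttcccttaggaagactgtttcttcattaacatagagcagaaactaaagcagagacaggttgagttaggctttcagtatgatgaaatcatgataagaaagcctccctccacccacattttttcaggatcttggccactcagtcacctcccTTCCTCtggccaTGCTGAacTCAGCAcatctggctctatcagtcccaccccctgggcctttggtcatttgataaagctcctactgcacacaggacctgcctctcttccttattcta
Fcna: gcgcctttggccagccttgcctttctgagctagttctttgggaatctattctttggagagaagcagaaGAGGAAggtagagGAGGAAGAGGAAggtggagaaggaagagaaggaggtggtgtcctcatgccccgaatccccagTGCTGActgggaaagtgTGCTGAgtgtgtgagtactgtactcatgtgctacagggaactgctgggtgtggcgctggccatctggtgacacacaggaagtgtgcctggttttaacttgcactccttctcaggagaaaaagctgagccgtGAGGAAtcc
Pcolce2: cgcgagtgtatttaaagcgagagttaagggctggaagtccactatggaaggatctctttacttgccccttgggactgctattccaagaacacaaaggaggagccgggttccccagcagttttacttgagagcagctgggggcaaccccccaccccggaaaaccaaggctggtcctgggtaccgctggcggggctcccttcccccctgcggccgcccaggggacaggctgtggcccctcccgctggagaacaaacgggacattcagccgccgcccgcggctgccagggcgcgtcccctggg
Of the 20 identity genes with a promoter in the table, 8 (40%) held GAGGAA, against 30.6% of the promoters of all genes tested, and 8 (40%) held TGCTGA, against 19.8%. AGGTCA, the core site of nuclear receptors such as the one encoded by Nr1h3, was in 4 (20.0%), against 15.9%, and the E-box CACGTG was in 0, against 10.4%. All motifs were searched on both strands, and a match is a description of the letters only. Over the 1098 promoters of genes higher by at least 1 log2 unit, the shares were 34.0% for GAGGAA, 24% for TGCTGA, 22.6% for AGGTCA and 7.47% for CACGTG. For the 901 promoters of genes lower by as much they were 32.4%, 20.1%, 16.0% and 9.99%. AGGTCA was also in 8 of the 26 promoters of hepatocyte markers (30.8%). The part of hepatocyte genes in the shares of higher genes was not tested.

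Other identity genes ranged over several functions. Clec4f, a galactose-binding lectin, had 10.42, 10.35 and 10.21 in Kupffer cells and 2.36 to 2.78 in microglia and kidney macrophages, with an intermediate 6.44, 6.45 and 6.28 in Langerhans cells. Clec1b, the receptor CLEC-2 known from platelets, had 10.01, 9.78 and 9.82 in Kupffer cells and 2.65 to 4.02 elsewhere. C6, a component of the membrane attack complex, had 9.27, 9.01 and 8.79 in Kupffer cells and 2.46 to 3.27 elsewhere. Cdh5, the cadherin of endothelial junctions, had 10.64, 10.57 and 10.51 in Kupffer cells and 2.85 to 4.43 elsewhere. The part of endothelial RNA in Cdh5 was not tested. Folr2, a folate receptor, had 10.65, 10.52 and 10.07 in Kupffer cells, against 3.78, 6.96 and 4.79 in kidney macrophages and 2.78 to 4.86 in the rest. Il18bp, the secreted inhibitor of interleukin 18, had 11.09, 10.97 and 10.86 in Kupffer cells and 5.95 to 7.01 elsewhere.

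Some identity genes were shared with a neighbour. Timd4, a receptor for phosphatidylserine on dying cells, had 10.29, 10.11 and 10.28 in Kupffer cells, against 9.41, 9.30 and 9.18 in Langerhans cells (difference 0.94, adjusted p = 0.0465), and 2.63 to 5.31 in kidney macrophages and microglia. Spic, a factor of red pulp macrophages and Kupffer cells that heme induces, had 8.99, 8.55 and 8.81 in Kupffer cells and 8.00, 8.20 and 7.81 in kidney macrophages. That difference of 0.78 was not called (adjusted p = 0.109), which left 22 of 23 identity genes higher than in kidney macrophages and all 23 higher than in microglia and in Langerhans cells. Hpgd, which inactivates prostaglandins, was the member with the smallest difference (2.04 ± 0.15), at 10.42, 10.34 and 10.43 in Kupffer cells, against 9.61 to 9.97 in microglia and kidney macrophages and 5.33 to 5.68 in Langerhans cells. Over the whole list the mean signal was 9.65, 9.39 and 9.42 in Kupffer cells, 3.50 to 3.60 in microglia, 4.07 to 4.46 in kidney macrophages and 3.79 to 3.84 in Langerhans cells. E14 wild-type Kupffer cells averaged 8.21 to 8.43 and adult Irf8 knockout Kupffer cells 9.27, 8.45 and 8.94, values given without a test.

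**Figure D2:**
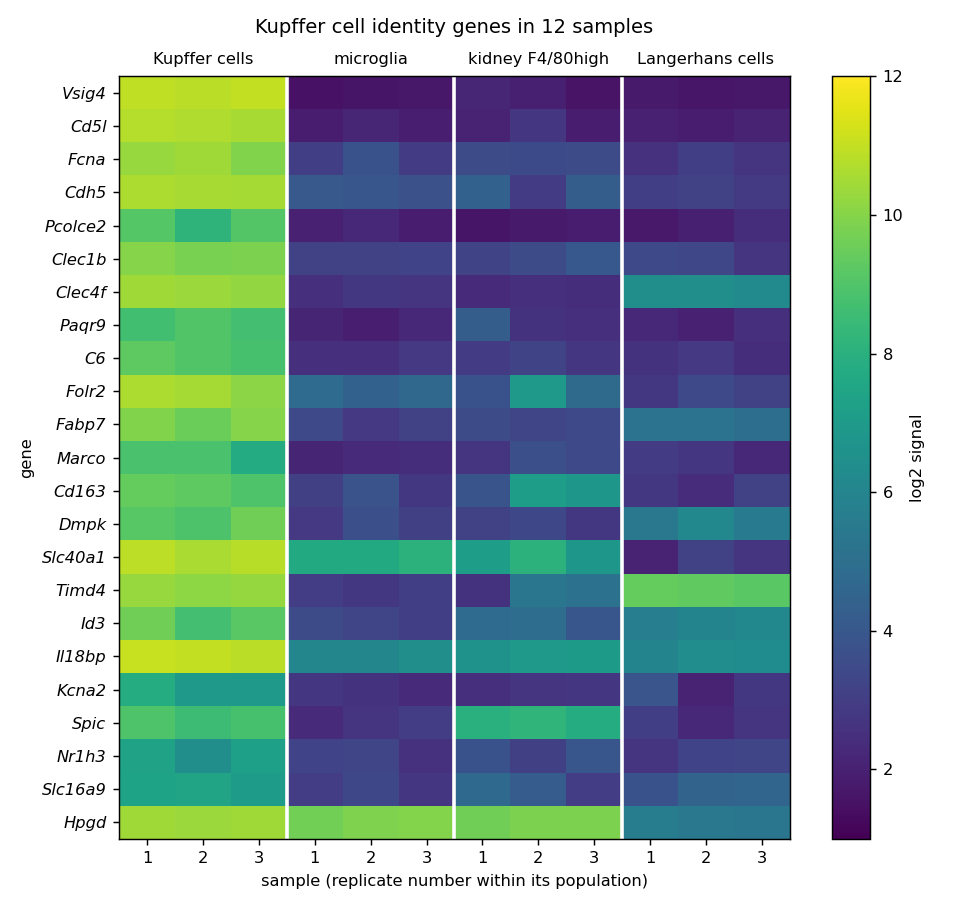
Log2 signal (colour) of the 23 Kupffer cell identity genes (rows) in each of the 12 samples (columns, Kupffer samples at the left). All 3 Kupffer samples lie above all 9 others in every row; Timd4 stands out for its level of 9.18 to 9.41 in Langerhans samples and Spic for 7.81 to 8.20 in kidney samples.

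The general macrophage genes Csf1r and Adgre1 were present in all groups, whereas Mertk, given below, was low in Langerhans cells. Csf1r had 10.92, 10.73 and 10.84 in Kupffer cells and 9.68 to 11.41 in the 9 others (0.20 ± 0.15, adjusted p = 0.302), and Adgre1, the F4/80 antigen, had 10.59, 10.14 and 10.30 in Kupffer cells, 10.12 to 10.39 in kidney macrophages, 9.02 to 9.36 in microglia and 7.75 to 8.04 in Langerhans cells. Of 21 microglia identity genes all 21 were lower in Kupffer cells than in microglia, such as Tmem119 at 3.70, 3.62 and 3.79 in Kupffer cells and 8.62, 9.50 and 9.21 in microglia. Of 15 Langerhans identity genes 14 were lower in Kupffer cells than in Langerhans cells, and Epcam had 3.38, 3.45 and 3.01 in Kupffer cells and 8.75, 8.21 and 8.59 in Langerhans cells. Some of these genes were not restricted to their own population. Cd207, langerin, had 7.19, 6.28 and 7.42 in Kupffer cells, against 11.51 to 11.72 in Langerhans cells and 2.24 to 3.21 in microglia and kidney macrophages. P2ry12, a nucleotide receptor of microglia, had 9.0, 8.34 and 8.42 in Kupffer cells and 7.73, 8.81 and 9.03 in kidney macrophages (0.06, adjusted p = 0.938), against 11.06 to 11.37 in microglia and 3.47 to 3.56 in Langerhans cells.

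Among 38 tested transcription factors of macrophages 16 were higher in Kupffer cells, 12 were lower and 10 were not called, with a median of 0.15. Those at the top of the list were Tfec, Id3, Spic, Irf7 and Nr1h3. Tfec, a helix-loop-helix factor of the MITF family, had 8.74, 8.69 and 8.55 in Kupffer cells, against 4.64, 6.54 and 5.0 in kidney macrophages and 2.41 to 4.13 in the others (4.74 ± 0.23, adjusted p = 1.41e-26). Id3, an inhibitor of helix-loop-helix factors that Kupffer cells need, had 9.62, 8.70 and 9.19 in Kupffer cells and 3.04 to 6.13 elsewhere, the upper values in Langerhans cells. Nr1h3, the oxysterol receptor LXR alpha, had 7.32, 6.44 and 7.22 in Kupffer cells and 2.58 to 3.93 in the 9 others (3.77 ± 0.25, adjusted p = 4.83e-20). Its partner Rxra had 7.94, 7.64 and 8.16 in Kupffer cells and 3.78 to 5.80 elsewhere. Both partners of that heterodimer thus lay above every other sample.

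Spi1 and Irf8, which all of these populations express, were not called against the mean of the others. Spi1 had 8.92, 9.06 and 9.01 in Kupffer cells and 8.65 to 9.20 elsewhere (0.10 ± 0.12, adjusted p = 0.553). Irf8, the gene removed in the study's knockout, had 9.14, 9.34 and 8.78 in Kupffer cells, against 9.85, 9.69 and 9.95 in microglia, 9.54, 9.62 and 9.64 in kidney macrophages and 8.99, 8.80 and 8.65 in Langerhans cells, and its difference of -0.33 ± 0.20 was not called (adjusted p = 0.211). With only the 4 groups in the fit it was called lower. Pparg, a nuclear receptor for fatty acids, had 5.56, 6.03 and 6.03 in Kupffer cells, below kidney macrophages (7.59, 6.83 and 7.28) and above microglia and Langerhans cells (1.97 to 3.18). Factors lower in Kupffer cells included Klf4 (5.89, 5.81 and 5.07 in Kupffer cells, 6.67 to 8.14 elsewhere) and Runx1 (6.34, 5.67 and 6.15 in Kupffer cells, 6.62 to 8.78 elsewhere), both without overlap. Sall1 and Bhlhe41 were also lower against the mean, but rested on microglia, where Sall1 had 9.62, 9.49 and 9.90, against 3.66, 3.30 and 2.72 in Kupffer cells and 2.29 to 3.97 in the rest.

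Of 24 tested genes of iron and heme handling 16 were higher in Kupffer cells, 4 were lower and 4 were not called, with a median of 1.18, and 8 lay above every other sample. The list includes the identity genes Slc40a1, Cd163 and Spic. Slc40a1, ferroportin, the exporter that returns iron to plasma, had 10.92, 10.61 and 10.83 in Kupffer cells, against 7.67, 7.68 and 8.08 in microglia, 7.18, 8.06 and 6.82 in kidney macrophages and 2.06, 3.12 and 2.65 in Langerhans cells (4.86 ± 0.27, adjusted p = 1.10e-23). Cd163, the receptor for haptoglobin and hemoglobin complexes, had 9.38, 9.27 and 8.97 in Kupffer cells, against 3.86, 7.13 and 6.84 in kidney macrophages and 2.38 to 3.80 in the others. Kidney sample 1 was the lowest of its group for Cd163, Timd4 and Siglec1, but not for Slc40a1. It was also the one with the most tubule RNA, and the part of that in these levels was not tested.

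Genes for several steps of heme breakdown were higher. Slc48a1, which carries heme out of the phagolysosome, had 8.49, 8.25 and 8.42 in Kupffer cells and 4.60 to 6.76 elsewhere (2.55 ± 0.19, adjusted p = 7.53e-18). Hmox1, the heme oxygenase that opens the ring, had 11.19, 10.91 and 11.15 in Kupffer cells, against 9.82, 10.54 and 10.01 in kidney macrophages and 7.26 to 8.19 in microglia and Langerhans cells. Blvrb, a biliverdin reductase, had 8.48, 8.36 and 8.25 in Kupffer cells and 5.08 to 7.53 elsewhere. Ncoa4, which brings ferritin to the lysosome, had 6.95, 6.77 and 6.71 in Kupffer cells and 5.15 to 6.09 elsewhere. Iron storage and import did not follow as one. Fth1, the ferritin heavy chain, had 11.26, 11.26 and 11.38 in Kupffer cells and 10.73 to 11.45 elsewhere (0.08 ± 0.06, adjusted p = 0.316). Slc11a2, a metal importer, was lower at 5.49, 5.30 and 5.09 in Kupffer cells, against 7.88 to 7.94 in Langerhans cells, 6.41 to 6.99 in kidney macrophages and 5.48 to 5.62 in microglia. The iron genes that were higher had their highest value in Kupffer sample 1 in 14 of 16 cases. Of all 2726 genes that were higher, 992 were highest in Kupffer sample 1, 942 in sample 2 and 792 in sample 3, and of the 31 hepatocyte genes 25 were highest in sample 2. The part of hepatocyte RNA in the iron genes was not tested.

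Genes regulated by LXR and genes of lipid handling were mostly higher, 20 of 26 tested, with 3 lower, 3 not called and a median of 1.79. Apoc1, a small apolipoprotein, had 11.60, 11.47 and 11.47 in Kupffer cells, against 8.34, 8.38 and 8.02 in Langerhans cells, 4.29, 5.05 and 5.68 in kidney macrophages and 2.99 to 3.41 in microglia (6.03 ± 0.20, adjusted p = 5.33e-35). Pltp, the phospholipid transfer protein, had 10.23, 10.07 and 9.66 in Kupffer cells, 8.06, 9.25 and 9.15 in kidney macrophages and 3.77 to 4.82 elsewhere. Smpdl3a, a phosphodiesterase under LXR control, had 9.20, 8.96 and 8.82 in Kupffer cells and 4.24 to 6.39 elsewhere, and Scd1, a fatty acid desaturase, had 8.79, 9.06 and 8.33 in Kupffer cells and 2.66 to 7.56 elsewhere. Fabp7 and Fabp4, carriers of fatty acids, were higher by 5.92 ± 0.32 and 5.05 ± 0.60.

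The LXR targets did not all behave alike. Abca1, a cholesterol exporter, had 8.32, 8.00 and 8.06 in Kupffer cells, within the 6.06 to 8.83 of the other samples (0.49 ± 0.24, adjusted p = 0.0963). Lpl, lipoprotein lipase, had 9.94, 9.65 and 9.40 in Kupffer cells and 9.84, 9.71 and 9.68 in kidney macrophages (-0.08, adjusted p = 0.888), and was lower in microglia (5.94 to 6.85) and Langerhans cells (2.52 to 3.49). Hepatocytes also make apolipoproteins and Scd1. Apoc2, with 6.07, 6.61 and 5.94 in Kupffer cells and 2.84 to 4.24 elsewhere, and Scd1 followed the order of the hepatocyte list (8.14, 8.51 and 7.94). Of the 20 lipid genes that were higher, 4 were highest in Kupffer sample 2 and lowest in sample 3, as that list was. The same order was seen in 639 of all 2726 genes that were higher. The part of hepatocyte RNA in the lipid genes was not tested.

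**Figure D3:**
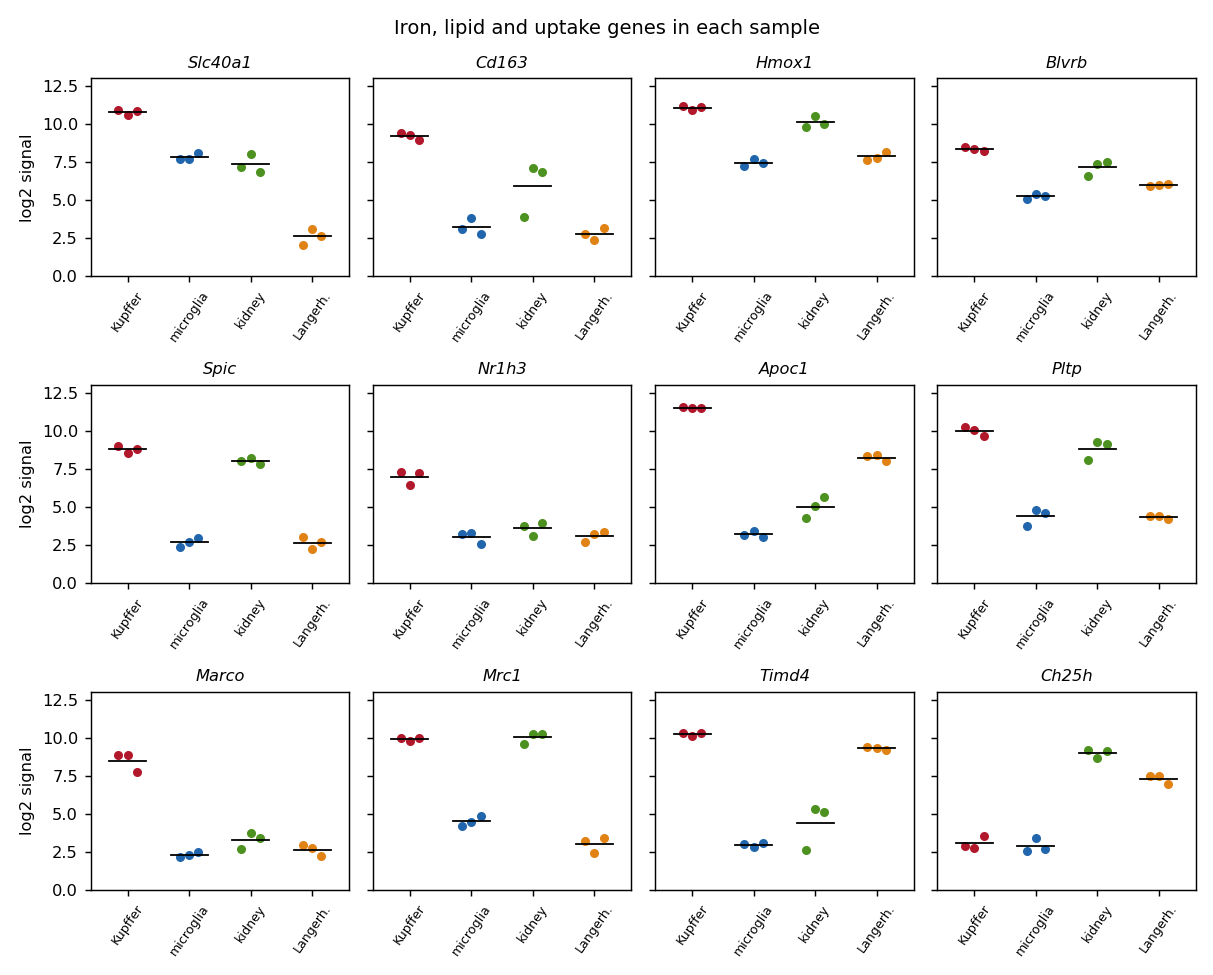
Log2 signal (vertical axis) of 12 genes of iron, lipid and particle handling in each sample; points are samples, black lines group means, and Kupffer cells stand at the left of each panel. Slc40a1, Apoc1 and Nr1h3 separate Kupffer cells from all 9 other samples, whereas Mrc1 is at one level in Kupffer and kidney samples and Ch25h is near 3 in Kupffer cells and microglia.

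Scavenger receptors, which bind modified lipoproteins and microbial surfaces, were higher in 11 of 17 tested, lower in 1 and not called in 5, with a median of 2.36. Marco had 8.84, 8.85 and 7.76 in Kupffer cells and 2.16 to 3.70 elsewhere (5.75 ± 0.25, adjusted p = 9.63e-30). Msr1 had 9.58, 9.39 and 9.23 in Kupffer cells, 7.81, 8.44 and 8.51 in kidney macrophages and 2.05 to 3.33 in the others. Mrc1, the mannose receptor, had 10, 9.76 and 9.99 in Kupffer cells and 9.55, 10.27 and 10.21 in kidney macrophages, a difference of -0.09 (adjusted p = 0.897), against 4.20 to 4.84 in microglia and 2.40 to 3.40 in Langerhans cells. Stab2, a hyaluronan receptor of sinusoidal endothelium, had 6.78, 6.62 and 8.60 in Kupffer cells and 2.35 to 2.88 elsewhere, and its difference of 4.74 was 4.10 without Kupffer sample 3. Its order over the Kupffer samples was that of the endothelial list, and the part of endothelial RNA was not tested.

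Uptake of dying cells was split. Of 23 tested members 9 were higher, 7 lower and 7 not called, with a median of 0.04. The receptor kinases Axl and Mertk were higher against the mean, by 3.34 ± 0.32 and 2.72 ± 0.27. Axl had 10.06, 9.83 and 10.10 in Kupffer cells and 10.17, 10.20 and 10.10 in kidney macrophages, against 4.59 to 5.17 in microglia and Langerhans cells. Mertk had 9.29, 9.04 and 9.46 in Kupffer cells, 10.07 to 10.22 in microglia, 6.38, 7.31 and 6.83 in kidney macrophages and 2.15 to 2.98 in Langerhans cells. The bridging protein Mfge8 was lower, at 3.40, 3.48 and 4.69 in Kupffer cells, against 11.22 to 11.35 in Langerhans cells and 4.78 to 5.47 in the other two populations, as was Havcr2, another receptor for phosphatidylserine (3.84, 4.37 and 4.38 in Kupffer cells, 4.51 to 4.97 in kidney macrophages and 7.85 to 9.34 in the rest).

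Complement genes were higher in 20 of 26 tested, lower in 2 and not called in 4, with a median of 2.40, and 15 lay above every other sample. The list holds Vsig4, Fcna and C6, given above. Cfp, properdin, which stabilises the alternative convertase, had 10.46, 10.13 and 10.17 in Kupffer cells, against 8.28 to 8.48 in Langerhans cells, 7.21 to 7.48 in kidney macrophages and 4.02 to 4.44 in microglia (3.64 ± 0.18, adjusted p = 9.11e-27). The chain C1qa was higher against the mean through Langerhans cells and was not called against microglia or kidney macrophages (adjusted p = 0.566 and 0.977). It had 10.40, 10.34 and 10.22 in Kupffer cells, 10.55 to 10.61 in microglia and 10.12 to 10.60 in kidney macrophages, against 6.61 to 7.20 in Langerhans cells. Several plasma components that hepatocytes secrete were highest in Kupffer sample 2, as the hepatocyte list was. C4b had 8.45, 9.02 and 8.35 in Kupffer cells and 1.85 to 5.47 elsewhere, and Serping1, the C1 inhibitor, had 7.40, 8.23 and 6.30 in Kupffer cells and 2.06 to 2.79 elsewhere. Cfi, Cfb and Hc had the same highest sample. Of the 20 complement genes that were higher, 7 were highest in Kupffer sample 1, 8 in sample 2 and 5 in sample 3. The order of the hepatocyte list, highest in sample 2 and lowest in sample 3, was seen in 6 of them. Over all 2726 genes that were higher, these 4 counts were 992, 942, 792 and 639. The part of hepatocyte RNA in the complement genes was not tested. Itgam, the alpha chain of complement receptor CR3 and of CD11b, was lower, at 6.38, 5.31 and 6.48 in Kupffer cells, against 10.16 to 10.29 in microglia, 7.39 to 8.36 in kidney macrophages and 5.38 to 5.87 in Langerhans cells.

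C-type lectins and galectins were higher in 18 of 29, lower in 6 and not called in 5, with a median of 0.98. Clec12a, an inhibitory receptor, had 9.86, 9.55 and 9.73 in Kupffer cells, 8.27, 9.47 and 9.51 in kidney macrophages and 2.32 to 5.02 in the others. Mgl2, a galactose lectin, was lower against the mean (-3.64 ± 0.36), at 3.25, 1.76 and 2.18 in Kupffer cells, the level of microglia (1.86 to 3.22), against 9.06 to 9.20 in kidney macrophages and 6.53 to 6.65 in Langerhans cells. Of 10 Fc receptors 8 were higher and 2 lower against the mean. Against microglia 5 were higher and 3 lower, against kidney macrophages 2 and 2, and against Langerhans cells 8 and 1. The list averaged 7.24, 7.06 and 7.35 in Kupffer cells and 7.23 to 7.25 in microglia. Kidney macrophages had 7.44 to 7.78 and Langerhans cells 4.47 to 4.53. Fcgr4 had 9.17, 8.77 and 8.62 in Kupffer cells and 9.02, 8.96 and 8.38 in kidney macrophages (0.07, adjusted p = 0.906), against 2.57 to 5.81 in the other two populations. Fcgr2b, the inhibitory receptor, was lower, with 4.87, 4.56 and 6.97 in Kupffer cells, against 6.56 to 7.63 elsewhere. Its difference of -1.78 was -2.53 without Kupffer sample 3, the sample with the most endothelial RNA, and Fcgr2b is also a gene of sinusoidal endothelium; that part was not tested. Fcrls had 3.54, 3.40 and 3.30 in Kupffer cells, against 10.88 to 10.89 in microglia, 6.45 to 8.85 in kidney macrophages and 3.08 to 4.08 in Langerhans cells.

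Receptors for microbial patterns were higher in 17 of 26 tested, lower in 4 and not called in 5, with a median of 0.87. Tlr8, a sensor of single-stranded RNA, had 7.37, 6.57 and 6.60 in Kupffer cells, 4.62, 6.64 and 6.44 in kidney macrophages and 1.85 to 2.84 in the others, and Nod1 had 7.94, 8.20 and 8.11 in Kupffer cells and 3.83 to 7.37 elsewhere. The 4 lower members were Tlr5, Tlr9, Nlrp3 and Cd14. Tlr5, the receptor for bacterial flagellin, had 3.58, 3.27 and 2.89 in Kupffer cells, against 6.48 to 6.78 in microglia, 4.98 to 5.52 in kidney macrophages and 5.47 to 6.17 in Langerhans cells (-2.65 ± 0.24, adjusted p = 1.57e-14). Tlr9, the sensor of unmethylated DNA, had 7.05, 6.91 and 6.91 in Kupffer cells and 7.47 to 9.68 elsewhere. Nlrp3, which forms the inflammasome, had 6.93, 6.40 and 6.66 in Kupffer cells and 7.26 to 9.24 elsewhere. Tlr5, Tlr9 and Nlrp3 lay below all 9 other samples.

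Interferon-stimulated genes were higher in 27 of 30 tested, with 0 lower, 3 not called and a median of 1.80. All Kupffer samples lay above every other sample for 5 of the 30, beside 5.87% of all genes. The count for interferon genes depended on the population they were set against. Against microglia 26 were higher and 0 lower, and against Langerhans cells 29 and 0. Against kidney macrophages 3 were higher and 3 lower, with a median of 0.01. The list averaged 7.21, 7.37 and 7.09 in Kupffer cells, against 7.03, 7.40 and 7.26 in kidney macrophages, 4.54 to 4.78 in microglia and 3.74 to 3.80 in Langerhans cells. Irf7, a factor that amplifies the response, had 9.36, 9.72 and 9.16 in Kupffer cells, 7.62, 8.60 and 7.97 in kidney macrophages and 3.22 to 4.72 in the others. Isg15, a ubiquitin-like protein, had 7.42, 7.32 and 7.24 in Kupffer cells and 7.71, 7.80 and 7.77 in kidney macrophages (-0.43, adjusted p = 0.389), against 4.21 to 4.58 in microglia and 5.54 to 5.96 in Langerhans cells. Of the 27 interferon genes that were higher, 15 were highest in Kupffer sample 2, and 10 of these, Irf7 among them, were also lowest in sample 3. That was the order of the T and NK cell markers (5.5, 6.63 and 4.87) and of the hepatocyte list, and T and NK cell markers were also higher in kidney samples than in the other two populations. Among all 2726 genes that were higher, 942 were highest in Kupffer sample 2, and 639 of these were also lowest in sample 3. The part of RNA from T, NK and liver cells in the interferon genes was not tested.

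Promoters of interferon-stimulated genes carry a repeat of GAAA that the factor ISGF3 binds, searched here as GAAA-NN-GAAA on both strands. It was in 15 of the 23 list members with a promoter in the table (65.2%), against 3.65% of all genes tested, 8.11% of genes higher in Kupffer cells by at least 1 log2 unit and 2.66% of genes lower by as much. The 2 members with the largest differences among those that hold it were chosen after their values were seen. Oas1g, an oligoadenylate synthetase, lies on the minus strand at chr5:120887564-120887863 and Ddx60, an RNA helicase, on the plus strand at chr8:61927837-61928136 (GRCm38.p6). Capitals mark the element, of which each window holds 2, overlapping in Oas1g.
Oas1g: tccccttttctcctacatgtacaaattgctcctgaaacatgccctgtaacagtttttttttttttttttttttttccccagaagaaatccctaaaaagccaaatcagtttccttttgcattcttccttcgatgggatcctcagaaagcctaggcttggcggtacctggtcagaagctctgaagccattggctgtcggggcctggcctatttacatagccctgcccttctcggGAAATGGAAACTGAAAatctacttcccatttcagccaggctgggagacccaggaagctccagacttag
Ddx60: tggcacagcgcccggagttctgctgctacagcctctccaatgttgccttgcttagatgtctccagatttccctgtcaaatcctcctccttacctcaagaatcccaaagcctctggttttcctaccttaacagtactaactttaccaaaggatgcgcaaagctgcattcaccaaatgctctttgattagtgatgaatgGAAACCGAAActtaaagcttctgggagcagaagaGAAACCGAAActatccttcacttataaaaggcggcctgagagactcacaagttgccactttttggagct
Oas1g had 8.16, 8.26 and 7.74 in Kupffer cells, against 8.54, 8.43 and 8.40 in kidney macrophages, 2.38 to 2.93 in microglia and 2.48 to 3.76 in Langerhans cells; the Oas1 genes are near-identical copies and the probe may not tell them apart. Ddx60 had 7.83, 7.91 and 7.71 in Kupffer cells, 6.39, 6.82 and 6.84 in kidney macrophages, 4.64 to 4.87 in microglia and 2.33 to 2.42 in Langerhans cells.

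Among secreted ligands, 17 of 36 chemokines and cytokines were higher in Kupffer cells, 7 were lower and 12 were not called, with a median of 0.73. Cxcl13, which attracts B cells, had 10.40, 10.27 and 10.34 in Kupffer cells and 2.49 to 3.37 elsewhere (7.37 ± 0.32, adjusted p = 1.31e-29). Ccl24, an eotaxin, had 10.05, 9.88 and 9.14 in Kupffer cells and 1.82 to 5.45 elsewhere. Ccr3, the receptor through which eotaxins act, was itself higher, at 7.01, 6.36 and 6.70 in Kupffer cells and 1.83 to 4.20 elsewhere (3.88 ± 0.48, adjusted p = 7.24e-10). Igf1, insulin-like growth factor, had 9.36, 9.28 and 9.05 in Kupffer cells, 6.72, 7.98 and 7.75 in kidney macrophages and 3.05 to 3.76 in the others. Hepatocytes make it too, and the part of their RNA in it was not tested. Cxcl9 and Ccl5 were higher against the mean but not called against kidney macrophages (differences 0.71 and 1.06, adjusted p = 0.187 and 0.261). Ccl5, which T and NK cells also make, was highest in Kupffer sample 2 (9.99, 10.81 and 9.59), where their markers were highest.

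Tnf and Osm, ligands of inflammation, were among the lower ones, and Il1b was higher against the mean through microglia alone. Tnf had 7.98, 6.90 and 6.80 in Kupffer cells, against 10.70, 10.38 and 10.15 in kidney macrophages, 9.70 to 9.79 in Langerhans cells and 6.31 to 7.43 in microglia. Il1b had 10.02, 9.48 and 9.40 in Kupffer cells, near Langerhans cells (9.61 to 10), below kidney macrophages (10.52 to 10.71) and above microglia (2.94 to 4.10). Osm had 2.74, 3.01 and 2.82 in Kupffer cells and 3.52 to 6.53 elsewhere. Of 32 receptors for cytokines and growth factors 5 were higher, 14 lower and 13 not called, with a median of -0.15. Ccr1, a receptor for inflammatory chemokines, had 2.76, 2.54 and 2.81 in Kupffer cells and 4.0 to 7.20 elsewhere. Il1r2, the decoy receptor of interleukin 1, and Il7r were lower against the mean through Langerhans cells, where they had 10.94 to 11.32 and 10.43 to 10.70.

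Adhesion molecules were higher in 12 of 24, lower in 6 and not called in 6. Itgal, the alpha chain of LFA-1, had 9.23, 9.19 and 9.16 in Kupffer cells, 7.09 to 7.39 in kidney macrophages and 2.54 to 3.55 in the others (4.85 ± 0.18, adjusted p = 4.37e-33). Siglec1, sialoadhesin, had 10.51, 10.24 and 10.45 in Kupffer cells, 7.85, 9.76 and 9.44 in kidney macrophages and 3.34 to 3.99 in the others. Itga6, a laminin receptor chain, was lower, at 3.55, 3.65 and 4.55 in Kupffer cells, against 9.07 to 9.09 in microglia, 7.71 to 7.81 in kidney macrophages and 5.62 to 5.89 in Langerhans cells.

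Notch and TGF-beta ligands from neighbouring liver cells are known to drive Kupffer cell identity, so both pathways were read. Of 22 Notch genes 7 were higher, 7 lower and 8 not called, with a median of 0.03. The Notch targets Hey1 (5.98, 4.99 and 5.23 in Kupffer cells, 2.68 to 3.83 elsewhere) and Hes1 (7.15, 6.27 and 6.40 in Kupffer cells, 4.15 to 4.53 in microglia and Langerhans cells) were higher, while Hes1 in kidney macrophages was 6.08, 6.44 and 6.19. Rbpj, the DNA-binding factor of the pathway, was lower, at 5.94, 6.19 and 5.87 in Kupffer cells, against 6.85, 6.26 and 6.99 in microglia and 8.22 to 8.72 in the rest (-1.93 ± 0.16, adjusted p = 1.20e-16). Of 33 TGF-beta and BMP genes 9 were higher, 13 lower and 11 not called, with a median of -0.11. Tgfbr1, the type I receptor, had 6.99, 6.88 and 7.53 in Kupffer cells and 7.15, 7.01 and 7.27 in Langerhans cells, against 9.96 to 10.25 in microglia and 9.28 to 9.37 in kidney macrophages. Smad6, an inhibitor of BMP signals, was higher (3.49, 4.83 and 4.97 in Kupffer cells, 1.49 to 2.40 elsewhere), as were Id1 and Id3, which BMP signals induce as well. The higher genes of this list had their highest value in Kupffer sample 3, the one with the most endothelial RNA, in 6 of 9 cases; the part of that was not tested.

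The genes lower in Kupffer cells than in all other samples were led by Gpr183, a receptor for oxysterols that guides immune cells. It had 5.13, 5.11 and 3.74 in Kupffer cells, against 8.77, 8.46 and 8.36 in microglia, 8.18, 7.98 and 8.14 in kidney macrophages and 9.47, 9.36 and 9.31 in Langerhans cells (-4.01 ± 0.25, adjusted p = 1.02e-21). Ch25h, the enzyme that starts the synthesis of its ligands, was lower against the mean (-3.34 ± 0.35), at 2.89, 2.73 and 3.52 in Kupffer cells and 2.52 to 3.43 in microglia, against 8.67 to 9.22 in kidney macrophages and 6.92 to 7.50 in Langerhans cells. Cd63, a tetraspanin of late endosomes, had 6.18, 6.75 and 6.22 in Kupffer cells, against 9.34, 9.21 and 9.27 in microglia, 9.82, 9.81 and 9.86 in kidney macrophages and 10.19, 10.15 and 10.25 in Langerhans cells (-3.39 ± 0.19, adjusted p = 8.63e-24). Another tetraspanin, Cd9, had 6.14, 5.56 and 5.77 in Kupffer cells and 6.52 to 10.34 elsewhere. Socs3, which curbs cytokine receptors that signal through JAK kinases, had 4.84, 3.86 and 3.74 in Kupffer cells and 6.90 to 8.13 elsewhere (-3.40 ± 0.29, adjusted p = 5.67e-16). With the mean of a gene's probes in place of the brightest, the difference was -2.44 for Socs3 and -2.05 for Cd9.

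Alox5, the lipoxygenase that starts leukotriene synthesis, had 4.77, 3.95 and 4.17 in Kupffer cells, against 8.04 to 8.46 in microglia, 8.86 to 9.11 in Langerhans cells and 4.80, 6.65 and 8.14 in kidney macrophages. Kidney sample 1, whose value lay next to the highest Kupffer value, was the one with the most tubule RNA. The part of that in its Alox5 level was not tested. Clec5a, a myeloid receptor that signals through DAP12, had 2.75, 1.88 and 3.36 in Kupffer cells and 4.71 to 7.73 elsewhere. Lag3, an inhibitory receptor, had 2.69, 3.71 and 3.39 in Kupffer cells and 5.32 to 8.50 elsewhere. Tec, a kinase of the BTK family, and Acss1, a mitochondrial acetyl-CoA synthetase, were lower by nearly one amount against each population, with differences of -2.74, -2.49 and -2.71 for Tec and -3.17, -2.82 and -2.52 for Acss1 against microglia, kidney macrophages and Langerhans cells. Pmepa1, a TGF-beta target that inhibits the pathway, P3h2, a collagen prolyl hydroxylase, and Olfr111, an olfactory receptor, complete the largest falls (-3.17 ± 0.24, -3.40 ± 0.29 and -3.84 ± 0.42). Snora31, a small nucleolar RNA, had 5.66, 5.26 and 3.86 in Kupffer cells and 7.35 to 9.33 elsewhere.

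**Figure D4:**
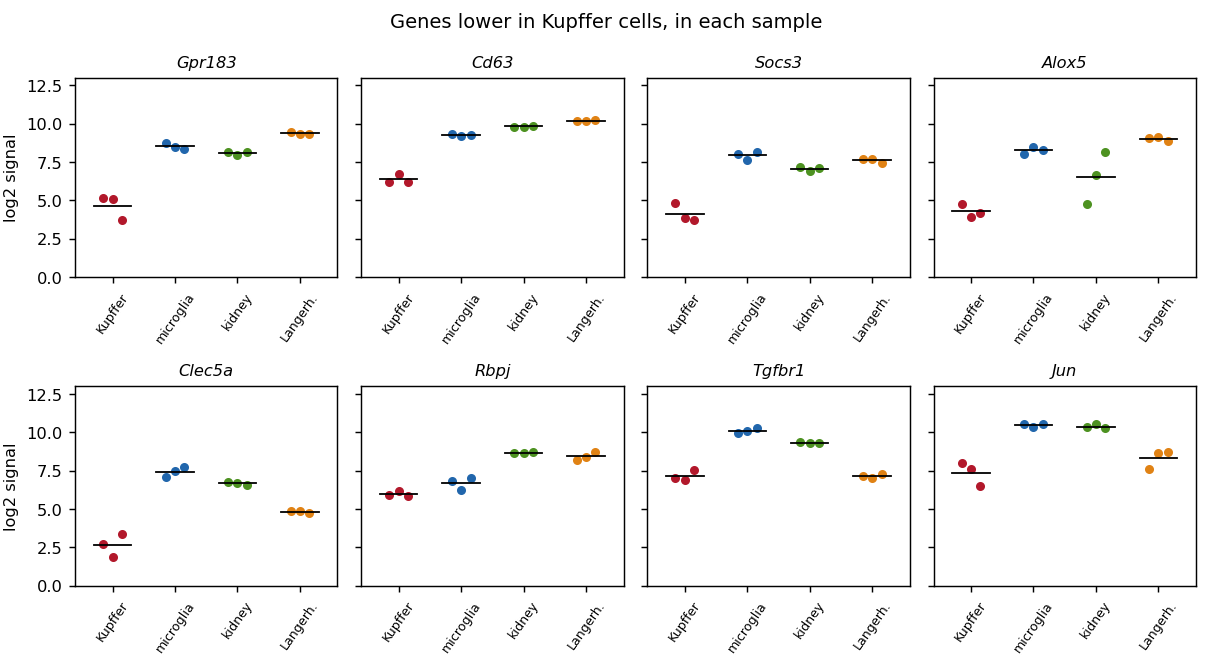
Log2 signal (vertical axis) of 8 genes lower in Kupffer cells against the mean of the other populations; points are samples, black lines group means, and Kupffer cells stand at the left of each panel. Gpr183, Cd63 and Socs3 are lower than in every other sample, Alox5 spreads from 4.80 to 8.14 among kidney samples, and Tgfbr1 is at one level in Kupffer and Langerhans cells.

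Immediate-early and heat shock genes, which respond to cell isolation, were lower in 16 of 20 and higher in 0, with a median of -1.26. Jun had 8.02, 7.59 and 6.50 in Kupffer cells, against 10.33 to 10.55 in microglia, 10.25 to 10.54 in kidney macrophages and 7.64, 8.62 and 8.69 in Langerhans cells. Egr1 had 8.42, 7.11 and 6.47 in Kupffer cells, against 9.97 to 10.60 in microglia and kidney macrophages and 8.28 to 8.71 in Langerhans cells. The list averaged 7.73, 7.11 and 6.94 in Kupffer cells, against 7.41 to 7.85 in microglia, 8.97 to 9.29 in kidney macrophages and 8.25 to 8.60 in Langerhans cells. Isolation differed between the organs, and its part in these levels, and in those of Tnf, Socs3 and Klf4, was not tested.

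Genes of small RNAs were also on the array. Of 278 tested genes with Mir symbols 12 were higher (4.32%, against 16.0% of all genes), 51 lower (18.3%, against 23.1%) and the rest not called. Another count, of genes below all 9 other samples, was 16 (5.76%, against 5.71% of all genes); these shares of lower genes are near or under those of all genes. The probes read RNA from the gene and the labels do not say that they measure the mature form. Mir23a was among the 15 largest falls and Mir27a, its neighbour in one cluster on chromosome 8, was named after its values were seen. Their mature sequences in RefSeq (GRCm38.p6, plus strand) are shown because both genes lay low together, with the seed, bases 2 to 8, in capitals. They lie at chr8:84208527-84208548 and chr8:84208563-84208583 for the arms of Mir23a and at chr8:84208685-84208706 and chr8:84208727-84208747 for those of Mir27a.
mmu-miR-23a-5p: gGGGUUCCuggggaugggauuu
mmu-miR-23a-3p: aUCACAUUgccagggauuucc
mmu-miR-27a-5p: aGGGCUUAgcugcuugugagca
mmu-miR-27a-3p: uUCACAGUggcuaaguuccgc
No seed is shared among these 4. Mir23a had 5.64, 4.62 and 2.49 in Kupffer cells, against 7.86 to 8.22 in microglia, 7.06 to 8.29 in kidney macrophages and 6.29 to 6.78 in Langerhans cells (-3.15 ± 0.43, adjusted p = 7.49e-09). The difference was -3.84 without Kupffer sample 1 and -2.27 without Kupffer sample 3. Mir27a had 5.62, 3.36 and 3.00 in Kupffer cells and 5.64 to 7.83 elsewhere (-3.13 ± 0.35, adjusted p = 2.06e-11). In both genes Kupffer sample 1 was the highest of its group, as it was for Jun and Egr1. A link between these genes was not tested.

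Lysosomal genes were higher in 16 of 31, lower in 5 and not called in 10, with a median of 0.40. Ctsc, cathepsin C, had 10.79, 10.59 and 10.63 in Kupffer cells, 10.32 to 10.72 in kidney macrophages, 9.45 to 9.67 in microglia and 7.27 to 7.33 in Langerhans cells. Lipa, the acid lipase that frees cholesterol, had 9.81, 9.64 and 9.58 in Kupffer cells and 5.35 to 9.08 elsewhere (2.18 ± 0.15, adjusted p = 4.01e-20). Against Langerhans cells 22 lysosomal genes were higher and 2 lower, and against microglia 5 were higher and 13 lower. Of 12 genes of MHC class II presentation 4 were higher, 1 lower and 7 not called. H2-Aa had 9.85, 9.92 and 10.05 in Kupffer cells, 10.54 to 10.78 in kidney macrophages, 10.73 to 10.87 in Langerhans cells and 2.71 to 4.37 in microglia, so its difference from the mean (1.61 ± 0.29) rested on microglia. Of 24 cell cycle genes 15 were not called against the mean, 2 were higher and 7 lower. The share not called is near that of all genes (10399 of 17076). Against kidney macrophages 19 of the 24 were lower and 0 higher, beside 15.9% and 9.24% of all genes. Against Langerhans cells 10 were higher and 3 lower, beside 23.0% and 25.8% of all genes. Against microglia 5 were higher and 1 lower, beside 16.5% and 20.9%. Mki67, a marker of dividing cells, did not follow the list against Langerhans cells. It had 5.85, 6.44 and 4.70 in Kupffer cells, against 7.15 to 7.84 in kidney macrophages, 7.82 to 8.02 in Langerhans cells and 3.53, 5.11 and 6.14 in microglia. Its call was lost without Kupffer sample 3.

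**Figure D5:**
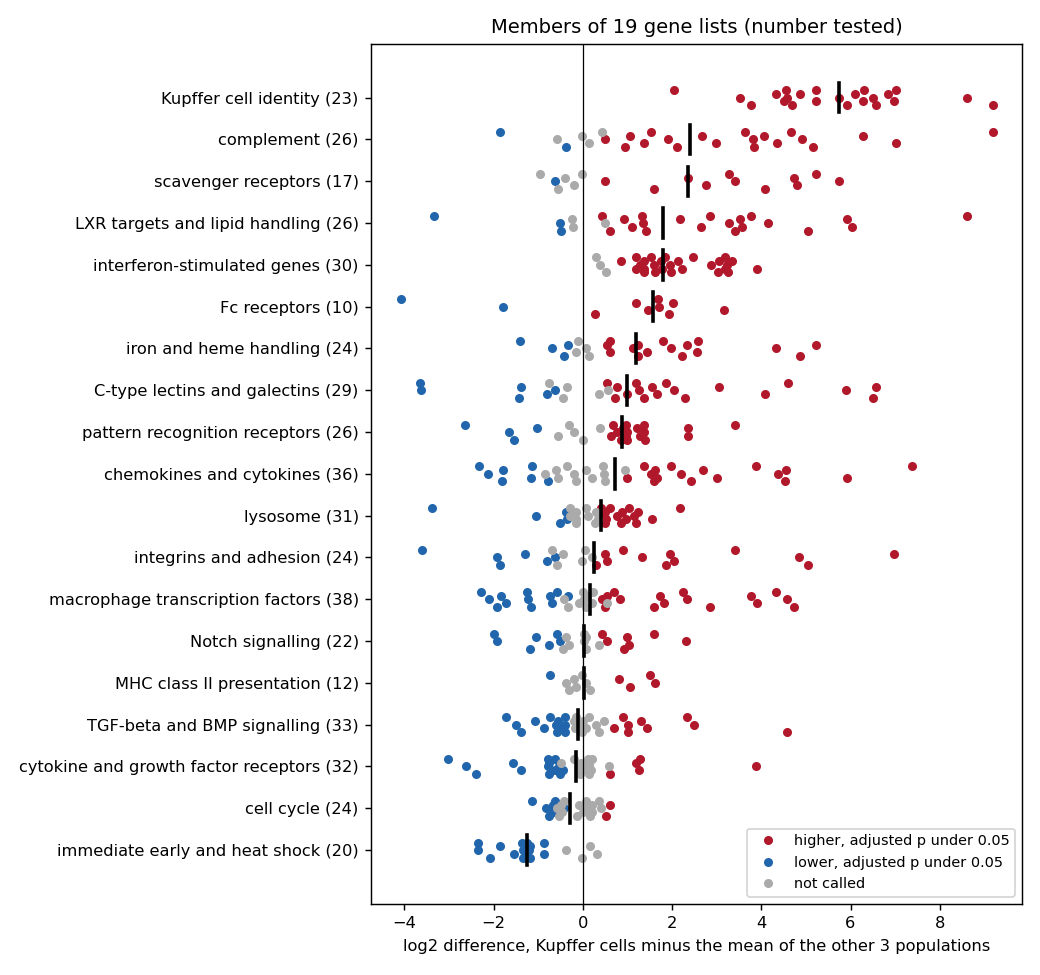
Log2 difference, Kupffer cells minus the mean of the other 3 populations (horizontal axis), of every tested member of 19 gene lists; each point is a gene and the black bar is the list's median. The medians run between 5.75 for the identity list and -1.26 for immediate-early and heat shock genes, beside -0.09 over all genes.

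The functional lists also differed by the population that Kupffer cells were set against. Iron and heme genes were higher in 15, 12 and 14 of 24 against microglia, kidney macrophages and Langerhans cells, lipid genes in 18, 14 and 20 of 26, and complement genes in 17, 15 and 22 of 26. Chemokines and cytokines were higher in 21, 12 and 19 of 36, and 16 of them were lower than in kidney macrophages. Receptors for microbial patterns were higher in 8, 2 and 19 of 26 and lower in 9, 8 and 3. Over all genes 16.5%, 9.24% and 23.0% were higher in these 3 comparisons, and 20.9%, 15.9% and 25.8% were lower. The 2 receptors higher than in kidney macrophages are thus near the share of all genes. Of the 23 identity genes 16 also belong to another list, so the counts of the lists are not independent.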

How the data were processed

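Gene expression of sorted mouse macrophages was measured on Affymetrix arrays. Per the labels' protocols, PicoPure RNA was amplified (Ovation PicoSL WTA V2) and then labelled (Encore Biotin). Per the submitters' processing notes, the authors ran RMA from Affymetrix Expression Console to obtain the deposited log2 signals; their software versions are not given in the sources used. Of 41345 probes, 23521 had exactly 1 gene symbol, and the brightest probe per gene was kept (22180 genes). A gene was tested when its signal exceeded 3.041, the 50th percentile of the table, in at least 2 samples of the series, which left 17076; the floor is not a detection call. Array medians ran from 2.942 to 3.195.

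Group means were estimated from all 80 samples in 27 groups (81 arrays, of which 2 runs of 1 sample were averaged) with limma 3.58.1 in R 4.3.3, with an intensity-dependent variance prior, 53 residual degrees of freedom and two-sided tests adjusted by the Benjamini-Hochberg method (threshold 0.05). The code was tested on simulated data. P-values and standard errors measure the spread between samples, which may be technical. That spread was pooled over all 27 groups, most of which were not compared here. Kupffer samples were less alike than samples within the other groups compared. For genes whose values differ widely among Kupffer samples, the standard errors and adjusted p-values may therefore overstate the precision. Samples of the same replicate number showed no shared deviation, and the labels do not say whether they shared animals.

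Genes named were the 15 largest rises and 15 largest falls without overlap, the 12 and 8 with the widest gaps to the next population, up to 6 members of each list by smallest adjusted p, every identity gene, the brightest 3 markers per other cell type, the sex-linked genes and Irf8. Others are list members that show where a list divides, chosen after their values were seen. Members and lists were chosen with earlier results of these data known. Promoter and mature miRNA sequences are RefSeq's (GRCm38.p6); 13188 of 17076 tested genes had a promoter in the table. Alternatives tried were a fit of only the 4 groups, weights per array, the replicate block, quantile normalization, median centring, 2 other floors, the mean of a gene's probes, no variance trend and each of the 12 samples left out. Python 3.11.15 with pandas 2.3.3 and matplotlib 3.10.9 made the tables and figures.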

Additional observations from a re-analysis of the deposited data

How the results depend on the processing

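The counts of genes higher (2726) and lower (3951) in Kupffer cells kept within 1.5 times of these values under all 21 alternatives, between 2230 and 3052 for higher genes and between 3222 and 4455 for lower ones. With each of the 12 samples left out in turn they ran from 2414 to 2704 and from 3238 to 3910, and the counts at 1 log2 unit or more from 1420 to 1477 and from 1154 to 1277. With the replicate block in a fit of the 4 groups, 2487 genes were higher and 3505 lower. Samples of the same number deviated with correlations between -0.04 and 0.029, so no shared deviation was seen. These correlations cannot tell whether samples came from the same animals, and the block is no test of pairing. Of 219 genes named by rule, 0 changed direction while called, and at most 11 lost their call, the most without Kupffer sample 3 (H2-Eb2, Mki67, Ccnb2, Bub1, Uhrf1, Sox9, Csf3r, Itgb3, Rbfox3, Cnp and Eif2s3y). Irf8 was called lower with only the 4 groups in the fit and with the replicate block. Without Kupffer sample 3, Ehd3 moved to 4.49, Adgrg1 to -4.90 and Aqp1 to 1.29, and Gzma, Gzmb, Ncr1 and Nkg7 to 4.14, 5.04, 3.67 and 3.66. Without Kupffer sample 2 the last 4 moved to 2.63, 3.47, 2.25 and 2.30. Without microglia sample 1, Xist moved to -4.49. With the mean of a gene's probes, Slco2b1 moved to -3.75, Rgs5 to 3.53 and Ighm to 1.02, past the threshold. The cause was not tested. Signals near the array's lower end limit the folds, and the scan order and date were not used here.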
